A study of Rattus norvegicus with 25 samples.

Results

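Aacs, Bdh1, Acat1, Oxct1, Mccc1, Mccc2 and Auh encode enzymes that make, use or feed the ketone bodies, and all 7 genes were measured, out of 14217 genes on the array. They were taken by gene symbol, as every probe set assigned to 1 of these symbols alone, which gave 9 of 31042 probe sets, with 2 each for Bdh1 and Acat1. Values are log2 signals, so that a difference of 1 is a doubling, and a gene with 2 probe sets is described by the brighter and then compared with the dimmer. The cells were McArdle-RH7777, rat hepatoma cells that make and release lipoproteins with apoB. The groups were control (2 lines, 2 and 3 arrays), Sar1A (1 line, 4 arrays), Sar1B (2 lines, 4 arrays each) and Sar1B:H79G (2 lines, 4 arrays each). The Sar1 lines overexpressed a human Sar1 with a FLAG tag, and H79G is a constitutively active form that cannot hydrolyze GTP. Every line was cultured in 10 µg/ml blasticidin and 250 µg/ml Zeocin, with 1 µg/ml tetracycline for the last 24 h, including the controls. Each Sar1 line was a stably transfected clone picked for its level of recombinant protein, so that a group of 1 or 2 clones stands for a construct, and the arrays of a line were technical replicates. The authors reported more recombinant Sar1 in their Sar1A lines than in the Sar1B and Sar1B:H79G lines. Construct and protein level thus cannot be told apart between these groups. The human constructs were not checked on these rat arrays.

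Ketone bodies are acetoacetate and 3-hydroxybutyrate, which liver mitochondria make from fatty acids in fasting and which other tissues burn. Acat1 joins or splits acetoacetyl-CoA in mitochondria, Bdh1 interconverts the 2 ketone bodies, and Oxct1 transfers CoA from succinyl-CoA to acetoacetate, the step that lets a tissue burn it and that normal hepatocytes largely lack. Aacs works in the cytosol, where it activates acetoacetate for the synthesis of fatty acids and cholesterol. Leucine breakdown reaches the same pool: the biotin enzyme 3-methylcrotonyl-CoA carboxylase, of which Mccc1 is the biotin-carrying subunit and Mccc2 the other, makes 3-methylglutaconyl-CoA, and Auh hydrates this to HMG-CoA.

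The promoters of the 4 genes that differed between Sar1B:H79G and control lines are shown to set their sequence beside their opposite directions. Of the 7 genes, 6 had a promoter in the RefSeq table (rat assembly GRCr8), and the 250 bases before the start of the gene are given 5′ to 3′. They lie at chr12:36817775-36818024 (minus strand), chr2:54963714-54963963 (plus strand), chr11:82842637-82842886 (minus strand) and chr17:12481171-12481420 (plus strand). Capitals mark matches, on either strand, to any of 5 motifs: the GC box GGGCGG, the CCAAT box CCAAT, the cAMP response element TGACGTCA, a C/EBP-ATF response element TGATGNAA and a sterol regulatory element TCACNCCAC.
Aacs: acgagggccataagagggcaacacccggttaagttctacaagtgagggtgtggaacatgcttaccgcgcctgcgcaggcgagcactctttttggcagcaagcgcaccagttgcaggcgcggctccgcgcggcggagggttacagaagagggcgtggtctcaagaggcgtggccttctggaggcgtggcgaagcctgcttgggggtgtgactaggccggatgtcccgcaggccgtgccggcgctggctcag
Oxct1: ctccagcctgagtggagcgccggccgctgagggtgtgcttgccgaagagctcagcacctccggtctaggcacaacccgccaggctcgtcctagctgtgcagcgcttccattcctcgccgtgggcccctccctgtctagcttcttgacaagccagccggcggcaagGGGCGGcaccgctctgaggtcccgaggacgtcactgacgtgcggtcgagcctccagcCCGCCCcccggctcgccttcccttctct
Bdh1: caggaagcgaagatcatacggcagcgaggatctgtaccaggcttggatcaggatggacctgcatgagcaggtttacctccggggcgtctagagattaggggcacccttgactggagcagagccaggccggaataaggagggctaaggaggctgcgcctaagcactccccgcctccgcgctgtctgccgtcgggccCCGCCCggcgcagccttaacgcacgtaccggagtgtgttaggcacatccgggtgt
Auh: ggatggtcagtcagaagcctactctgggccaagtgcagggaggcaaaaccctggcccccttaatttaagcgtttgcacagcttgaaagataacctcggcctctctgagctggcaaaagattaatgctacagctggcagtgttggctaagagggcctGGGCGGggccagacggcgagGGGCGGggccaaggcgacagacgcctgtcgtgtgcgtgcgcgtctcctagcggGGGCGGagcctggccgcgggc
The Aacs window held a match to none of the 5 motifs. GC boxes were the only matches in the other 3 windows, with 2 in Oxct1, 1 in Bdh1 and 3 in Auh. Of all 33469 promoter windows of this length, 30.5% held at least 1. The GC content of these 3 windows was 62.8% to 68.8%, against a median of 51.2% over all windows, and its part in the matches was not tested. Among the 2 other members with a promoter, Acat1 held a GC box and 2 CCAAT boxes, and Mccc1 held a GC box, 2 CCAAT boxes and the sterol regulatory element, which 0.974% of all windows held. CCAAT boxes were found in 34.0% of all windows. These are matches of letters, not bound sites.

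The array medians lay between 8.098 and 8.163, and arrays of a line had a median correlation of 0.995. The names of all 5 control arrays share one prefix and those of all 20 others another. Digits in the form of a date follow the prefix, and they too differ between these 2 sets of arrays. The labels do not explain the prefix or the digits or name a batch. For each comparison with control these parts of the names and the construct cannot be told apart. The spike-in transcripts had a 5′ minus 3′ signal of -1.74 to -1.63 in the control lines and -0.835 to -0.759 in the other lines. The Sar1B:H79G, Sar1B and Sar1A arrays share a prefix, but for β-actin this gap was -0.711 and -0.627 in the Sar1B:H79G lines, -0.501 and -0.493 in the Sar1B lines and -0.61 in the Sar1A line, and its part in the results was not tested. Of 8 hepatocyte markers 7 were measured, all with a mean between percentiles 89.2 and 99.9 of the probe sets. In Sar1B:H79G against control 3 of them (Apob, Hnf4a and Serpina1) were lower, beside 9.17% of all probe sets. Their summed signal lay between 15.3 and 15.56 in the Sar1B:H79G arrays and between 15.55 and 15.91 in the control arrays. Of 10 markers of fibroblasts, leukocytes, endothelium and bile duct cells 9 were measured, 1 of them (Col1a1) above the median probe set, and their summed signal was 10.73 to 10.75 in control and 10.68 to 10.83 in Sar1B:H79G arrays. Signals of different probe sets are not on a common scale, so this is a description only.

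In the Sar1B:H79G lines, 4 of the 7 genes differed from the control lines, 2 in each direction. Aacs and Oxct1 were higher, Bdh1 and Auh were lower, and Acat1, Mccc1 and Mccc2 did not pass the test. Over all probe sets, 22.3% passed in this comparison (13.2% higher, 9.17% lower), and the median log2 difference was 0.00 over the 7 genes and 0.03 over all probe sets. Against the Sar1B lines 3 of 7 passed (background 8.63%; 3.34% higher, 5.29% lower): Aacs was higher, and Mccc2 and Auh were lower, with a median of -0.41. Against the Sar1A line, whose spread was taken from the other groups, Aacs alone passed (background 2.96%; 1.33% higher, 1.63% lower). The Sar1B lines differed from control in 1 of 7 genes, Oxct1 (background 8.29%; 6.28% higher, 2.01% lower). No member passed in Sar1A against control (background 1.18%, with 0.995% higher and 0.187% lower) or Sar1A against Sar1B (background 0.00322%). With each array taken as a replicate, the same 2 comparisons gave 4 and 2, beside a background of 36.2% and 10.3%. All leading probe sets of the members lay above the median probe set, at percentiles 64.2 to 94.6. A fit over only the probe sets above the median called the same members, beside a larger background. It was 31%, 17.3% and 6.07% for Sar1B:H79G against control, Sar1B and Sar1A. For Sar1B and Sar1A against control it was 10.6% and 2.18%, and for Sar1A against Sar1B 0.00644%. Whole cultures were measured, so that fewer cells with a transcript and less of it per cell cannot be told apart.

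**Figure D1:**
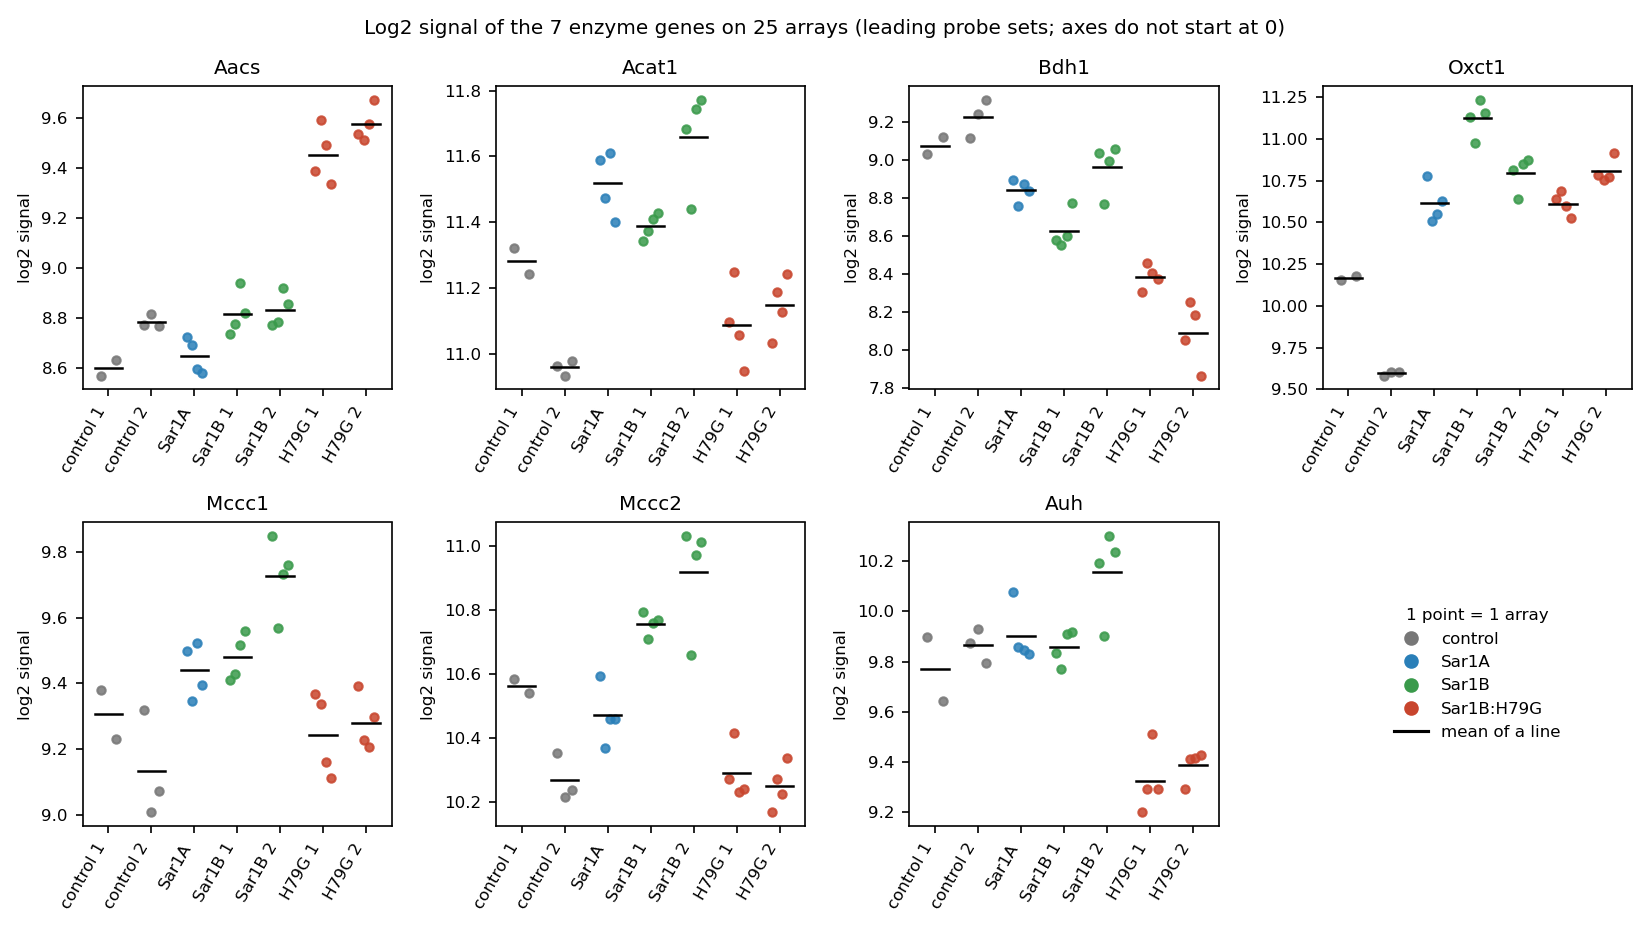
Log2 signal (vertical axes, which do not start at 0) of the leading probe set of each gene on every array, by cell line (horizontal axes), with a point per array and a bar at the mean of a line; H79G stands for Sar1B:H79G. All 8 Sar1B:H79G arrays lie above the other 17 for Aacs, between 9.34 and 9.67, and below them for Auh, between 9.20 and 9.51.

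**Figure D2:**
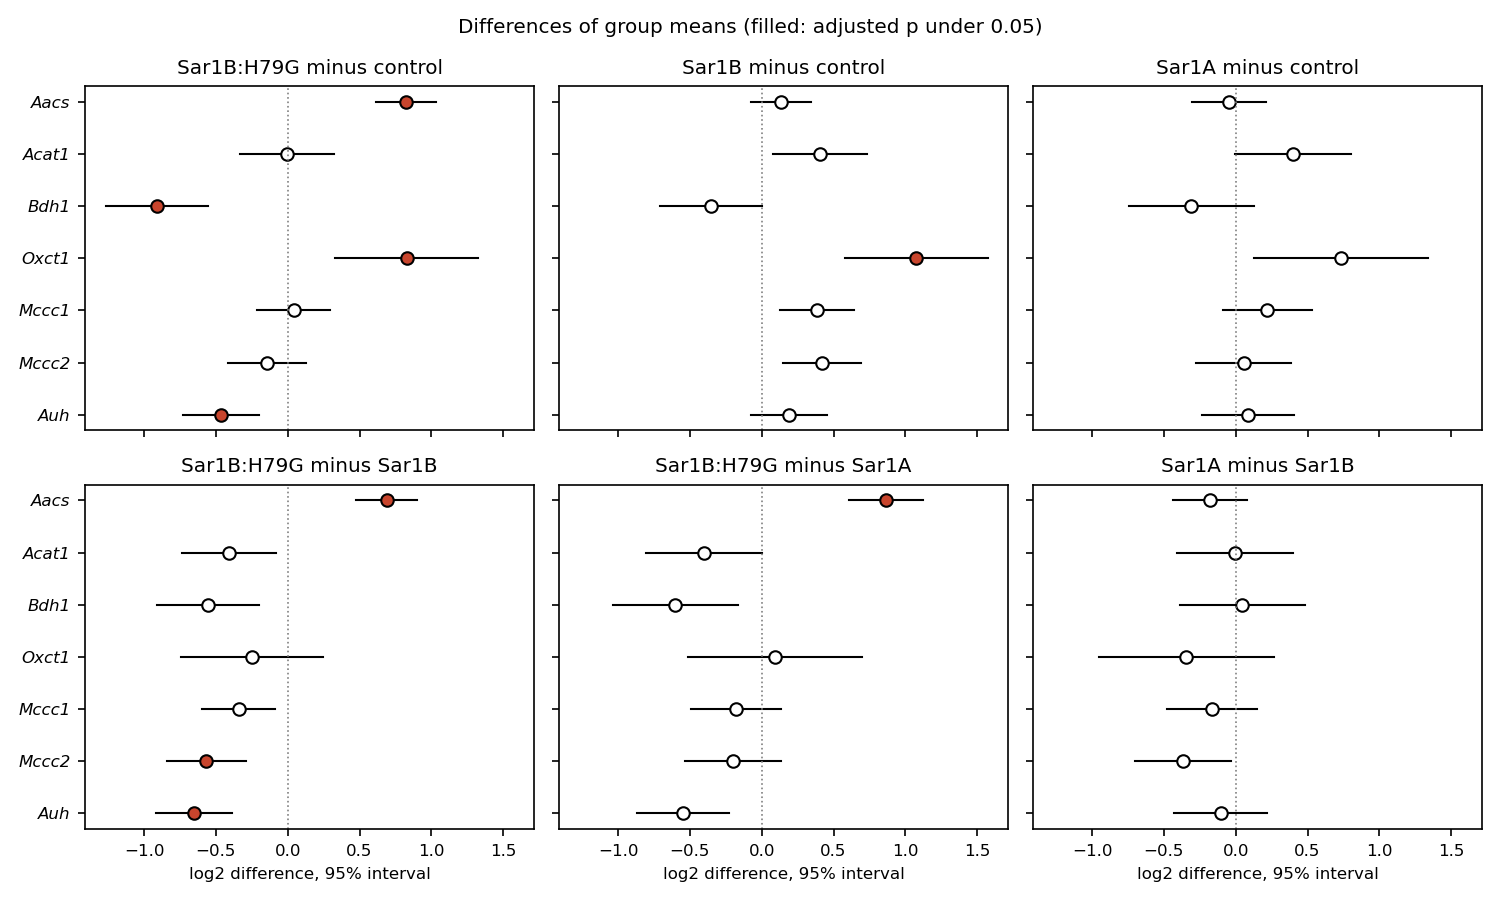
Difference of group means on the log2 scale (horizontal axes) for the 7 genes (vertical axes) in 6 comparisons, with 95% intervals from limma on line means; filled points have an adjusted p under 0.05. Aacs is the only gene filled in all 3 comparisons of Sar1B:H79G, at 0.82, 0.69 and 0.87.

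Aacs (1368126_at), the cytosolic acetoacetyl-CoA synthetase, had its highest levels in both Sar1B:H79G lines. Its log2 signal was 9.45 and 9.58 in the Sar1B:H79G lines. It was 8.60 and 8.79 in the control lines, 8.65 in the Sar1A line and 8.82 and 8.83 in the Sar1B lines. The 8 Sar1B:H79G arrays ran from 9.34 to 9.67 (median 9.53), while the highest of the other 17 arrays was a Sar1B array at 8.94, so that the groups did not overlap. Control arrays were at 8.57, 8.63, 8.77, 8.82 and 8.77, and Sar1A arrays at 8.72, 8.69, 8.60 and 8.58. The Sar1B:H79G mean was 9.51 ± 0.087 and the control mean 8.69 ± 0.131 (SD, n = 2 lines each). This is a log2 difference of 0.82 (standard error 0.0863, adjusted p = 0.00316), or 1.77-fold. Among the Sar1 lines, whose arrays share a name prefix, the difference was 0.69 from Sar1B (adjusted p = 0.00853) and 0.87 from Sar1A (adjusted p = 0.0173). The order below was Sar1B, control, Sar1A, and none of these passed the test against another, with -0.18 between Sar1A and Sar1B as the widest gap. The calls against control and Sar1B were kept in every alternative run, and that against Sar1A was lost at an adjusted p under 0.01 and in a fit of only those 2 groups (adjusted p = 0.095), which called 0 of 31042 probe sets.

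Bdh1 (1368387_at), the mitochondrial 3-hydroxybutyrate dehydrogenase, was lowest in the Sar1B:H79G lines, at 8.38 and 8.09. The control lines were highest, at 9.07 and 9.22, with the Sar1A line at 8.84 and the Sar1B lines at 8.63 and 8.96 between them. The 8 Sar1B:H79G arrays lay between 7.86 and 8.46 (median 8.28), below every other array. The 5 control arrays, at 9.03, 9.12, 9.11, 9.24 and 9.31, overlapped only with Sar1B arrays (8.55 to 9.06). Between Sar1B:H79G and control the log2 difference was -0.91 (standard error 0.147), a ratio of 0.532, with an adjusted p of 0.0103. The differences from Sar1B, -0.56 (adjusted p = 0.0762), and from Sar1A, -0.60 (adjusted p = 0.171), did not pass the test. Neither did the steps from Sar1B (-0.35, adjusted p = 0.172) or Sar1A (-0.31, adjusted p = 0.354) to control. The control comparison did not pass when control line 2 was left out (adjusted p = 0.088).

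The dimmer Bdh1 probe set, 1374765_at, moved the same way by less. Its line means were 8.13 and 8.002 in Sar1B:H79G, 8.34 and 8.35 in control, 8.23 in Sar1A, and 8.25 and 8.31 in Sar1B. The difference between Sar1B:H79G and control was -0.28 (adjusted p = 0.036), and leaving out any 1 of the 6 control, Sar1B and Sar1B:H79G lines ended this call (adjusted p = 0.05 to 0.14). The mean of both probe sets differed by -0.60.

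Oxct1 (1371421_at), the CoA transferase that lets cells burn acetoacetate, was higher in every Sar1 line than in either control line. The control lines had 10.17 and 9.60, the Sar1A line 10.61, the Sar1B lines 11.12 and 10.79 and the Sar1B:H79G lines 10.61 and 10.81. The highest control array was at 10.18 and the lowest of the 20 Sar1 arrays at 10.51, so that the groups did not overlap. The control lines were themselves apart by 0.569, more than the lines of any other group for this gene, with arrays at 10.16 and 10.18 in line 1 and at 9.58, 9.60 and 9.61 in line 2. Against control, Oxct1 was higher by 1.08 in Sar1B (standard error 0.204, adjusted p = 0.034), or 2.11-fold. It was higher by 0.83 in Sar1B:H79G (adjusted p = 0.0357), and the difference of 0.73 in Sar1A did not pass (adjusted p = 0.165). The split of the lines is also that of the array name prefixes. Among the Sar1 lines no difference passed: Sar1B:H79G differed from Sar1B by -0.25 with a 95% interval of -0.745 to 0.245, and it differed from Sar1A by 0.09, with an interval of -0.513 to 0.70. Without control line 2, which leaves 1 control line, no probe set of the array passed in Sar1B against control, so no gene could keep a call there. Both Oxct1 calls were lost in that fit, at differences of 0.54 in Sar1B:H79G and 0.79 in Sar1B. They were also lost without either line of the construct, with an adjusted p of 0.07 and 0.11 for Sar1B:H79G and of 0.11 and 0.074 for Sar1B.

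Acat1, the mitochondrial acetoacetyl-CoA thiolase that also serves isoleucine breakdown, gave different pictures on its 2 probe sets. On the brighter, 1367763_at, the Sar1B:H79G lines (11.09 and 11.15) lay between the control lines (11.28 and 10.96). The Sar1A line (11.52) and the Sar1B lines (11.39 and 11.66) were above all of these. The Sar1B:H79G to control difference was 0.00 (95% interval -0.33 to 0.33, adjusted p = 0.99), and the differences of 0.40 in Sar1B (adjusted p = 0.113) and 0.40 in Sar1A (adjusted p = 0.221) against control did not pass. Against Sar1B the Sar1B:H79G lines differed by -0.41 (adjusted p = 0.14), with no overlap between the arrays.

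On the dimmer Acat1 probe set, 1383416_at, the Sar1B:H79G lines were the lowest, at 8.096 and 7.95, and the Sar1B lines (8.28 and 8.59), the Sar1A line (8.43) and the control lines (8.61 and 8.34) overlapped. The difference from control was -0.45 (adjusted p = 0.0608) and that from Sar1B -0.41 (adjusted p = 0.143). Both probe sets thus put Sar1B:H79G about equally far below Sar1B, and they disagreed on where the control lines stood. Which part of the transcript each probe set reads was not used here.

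**Figure D3:**
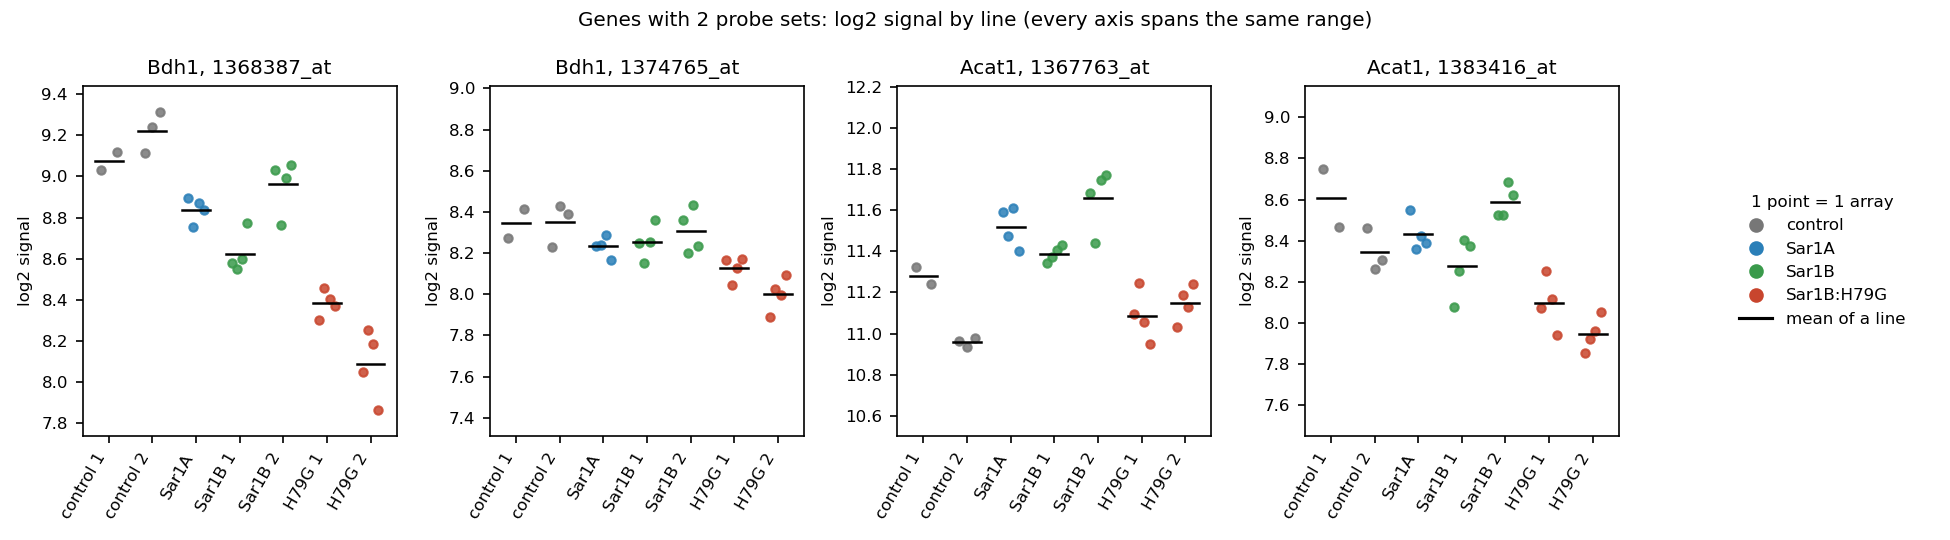
Log2 signal (vertical axes, all spanning the same range) of both probe sets of Bdh1 and Acat1 on every array, by cell line (horizontal axes), with a point per array and a bar at the mean of a line. For Acat1 the control lines lie at the level of the Sar1B:H79G lines on the brighter probe set (11.28 and 10.96 against 11.09 and 11.15) and above them on the dimmer (8.61 and 8.34 against 8.096 and 7.95).

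The leucine branch genes were highest in Sar1B line 2 and, for Auh and Mccc2, lowest in a Sar1B:H79G line. Auh (1372149_at), the hydratase, had 9.32 and 9.39 in the Sar1B:H79G lines, 9.77 and 9.87 in the control lines, 9.90 in the Sar1A line and 9.86 and 10.16 in the Sar1B lines. All 8 Sar1B:H79G arrays, from 9.20 to 9.51 (median 9.35), lay below the lowest of the others, a control array at 9.64. Control arrays were at 9.90 and 9.64 in line 1 and at 9.87, 9.93 and 9.80 in line 2, within the range of the Sar1B arrays but for that lowest one. Auh was lower in Sar1B:H79G than in Sar1B (-0.65, standard error 0.108, adjusted p = 0.0197) and than in control (-0.46, standard error 0.108, adjusted p = 0.0309). The difference from Sar1A, -0.55, did not pass (adjusted p = 0.101). The order Sar1B, Sar1A, control held no pair that passed.

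Over all alternatives the Auh difference ran from -0.80 to -0.50 against Sar1B and from -0.51 to -0.42 against control. Against control the gene did not pass when control line 1 (adjusted p = 0.08) or 2 (0.16) or Sar1B:H79G line 1 (0.11) or 2 (0.07) was left out. Against Sar1B it did not pass without either control line (0.059 each), without Sar1B line 2 (0.053) or without Sar1B:H79G line 1 (0.063) or 2 (0.051).

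Mccc2 (1377060_at), the subunit without biotin, had 10.76 and 10.92 in the Sar1B lines and 10.29 and 10.25 in the Sar1B:H79G lines. The Sar1A line, at 10.47, and the control lines, at 10.56 and 10.27, lay between or beside the latter. The Sar1B arrays (10.66 to 11.03, median 10.78) did not overlap with the Sar1B:H79G arrays (10.17 to 10.42, median 10.26). The difference between these groups was -0.57 (standard error 0.112, adjusted p = 0.0333). It was lost without Sar1B line 1 (adjusted p = 0.057) or line 2 (0.15) and without Sar1B:H79G line 1 (0.082) or line 2 (0.1). With control as the reference, the Sar1B:H79G difference was -0.15 (adjusted p = 0.378) and that of Sar1B 0.42 (adjusted p = 0.0712).

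Mccc1 (1376852_at), the biotin-carrying subunit, was also highest in the Sar1B lines, with smaller differences, and none passed the test. The Sar1B lines had 9.48 and 9.73, the Sar1A line 9.44, the Sar1B:H79G lines 9.24 and 9.28 and the control lines 9.31 and 9.13. The difference of Sar1B from control was 0.38 (adjusted p = 0.0745) and that of Sar1B:H79G from Sar1B -0.34 (adjusted p = 0.115), with no overlap of arrays in either comparison. The Sar1B:H79G to control difference was 0.04, with a 95% interval of -0.212 to 0.298. Over the 7 line means the correlation between both carboxylase subunits was 0.903, and it was 0.919 over the 5 lines without Sar1B:H79G. Acat1 had a correlation of 0.95 with Mccc1, and that of Aacs with Bdh1 was -0.875 over 7 lines and -0.194 over 5. These describe 7 cell lines that share their normalization and in part their construct.

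Array 2 of Sar1B line 2 was the lowest of its line for 6 of the 7 genes, and its median correlation with the other arrays of the line was 0.9933, against 0.997 to 0.9977 for the others. Leaving it out changed no count of members that passed. For each gene the spread between arrays of a line (pooled SD 0.0783 to 0.119 over the leading probe sets) was smaller than that between lines of a group (0.0912 to 0.28), with the widest gap for Oxct1.

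The genes whose line means ran most like those of each member were searched among 9431 genes with a leading probe set above the median. For Aacs they were Cep152 (r = 0.9953 over 7 lines) and Copb2 (0.991), whose own Sar1B:H79G to control differences were 1.18 and 1.31. Bdh1 was matched by C17h5orf24 (0.989) and Tmem17 (0.9859), Oxct1 by Tomm20 (0.984) and Rexo2 (0.9826), and Acat1 by Fcho2 (0.9946) and Mrpl50 (0.9882). For the leucine branch they were Agt (0.9791) and Tnrc6b (0.9776) for Mccc1, Atp1b3 (0.9888) and Lrrc71 (0.9764) for Mccc2, and Sort1 (0.9924) and Mgll (0.9923) for Auh. With 7 points and so many genes searched, values this high are the top of a long list and no more.

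Around the members, 5 other ketone body genes were measured: Bdh2, Acat2 and the monocarboxylate carriers Slc16a1, Slc16a7 and Slc16a6. In Sar1B:H79G against control 2 of 5 were lower and none was higher (background 9.17% lower, 13.2% higher), with a median of -0.48. Bdh2, a cytosolic dehydrogenase related to Bdh1, was lower (-0.71, adjusted p = 0.00266), and so was Acat2, the cytosolic thiolase that opens cholesterol synthesis (-2.17, adjusted p = 0.000898). Both were also lower than in Sar1B (-0.54, adjusted p = 0.00916, and -2.07, adjusted p = 0.00152) and than in the Sar1A line (-0.49, adjusted p = 0.0424, and -1.99, adjusted p = 0.00557). Both were lower in the lines in which Aacs was higher. The call of Bdh2 against Sar1A was lost without any 1 of the 6 control, Sar1B and Sar1B:H79G lines (adjusted p = 0.055 to 0.12), whereas those of both genes against control and Sar1B were kept. The other genes of the list were not analysed here.

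Of 19 other genes of leucine and branched-chain amino acid breakdown, 5 were lower and 2 higher in Sar1B:H79G than in control (background 9.17% lower, 13.2% higher), with a median of 0.13. Hsd17b10, a dehydrogenase of isoleucine breakdown, was lower (-0.92, adjusted p = 0.00323), as was Bckdhb, a subunit of the branched-chain ketoacid dehydrogenase (-0.62, adjusted p = 0.00318). Both were lower than in Sar1B too (-1.004, adjusted p = 0.00469, and -0.62, adjusted p = 0.00568), and kept these calls and those against control without each of the 6 control, Sar1B and Sar1B:H79G lines. Mcee, an epimerase of propionate breakdown, was lower than in control (-0.82, adjusted p = 0.0092) and than in Sar1B (-0.65, adjusted p = 0.032). Aldh6a1 of valine breakdown (-0.78, adjusted p = 0.0212) and Bckdk, the kinase that switches the ketoacid dehydrogenase off (-0.28, adjusted p = 0.0414), completed the lower genes. Against Sar1B, Bckdk (-0.35, adjusted p = 0.0389) and Hibadh of valine breakdown (-0.68, adjusted p = 0.0359) were lower. The higher genes were Acadsb, an acyl-CoA dehydrogenase of isoleucine, by 1.10 (adjusted p = 0.0132), and Hibch of valine breakdown, by 0.59 (adjusted p = 0.0218). Neither passed against Sar1B, at differences of -0.15 and 0.09. In the control lines Acadsb lay at 7.62 and 7.21, below the median probe set mean of 8.131.

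Acadsb was also higher in Sar1B than in control, by 1.25 (adjusted p = 0.0217), as were the transaminase Bcat2, by 1.29 (adjusted p = 0.019), and the phosphatase Ppm1k, by 0.37 (adjusted p = 0.0461). These 3 of 19 were the list's only calls there (background 6.28% higher, 2.01% lower), none was lower, and the list's median was 0.09. Against Sar1B, Sar1B:H79G had 5 of 19 lower (Bckdhb, Bckdk, Hibadh, Hsd17b10 and Mcee; background 5.29%) and none higher, with a median of -0.15. No gene of this list passed in a comparison with the Sar1A line. Even so, Acadsb, Hibch, Bcat2 and Ppm1k differed from control by 1.31, 0.69, 0.75 and 0.35 in the Sar1A line. For these genes both control lines lay below every Sar1 line, and this split is also that of the array name prefixes. The calls of Bckdk and Ppm1k were lost without any 1 of the same 6 lines, with an adjusted p up to 0.16 for Bckdk against control and 0.22 for Ppm1k. Against control in Sar1B:H79G, leaving out control line 2 ended the calls of Mcee (adjusted p = 0.078), Aldh6a1 (0.11), Acadsb (0.091) and Hibch (0.14). Without control line 1 those of Aldh6a1 (0.093) and Hibch (0.062) were lost, and without a Sar1B:H79G line Aldh6a1 (0.053, line 1) and Hibch (0.062, line 2). In Sar1B against control, Bcat2 and Acadsb were lost without control line 2, where no probe set of the array passed in this comparison. Both were also lost without Sar1B line 1 or Sar1B line 2, and Acadsb also without control line 1. Against Sar1B, Mcee was lost without either control line (0.09 each), Sar1B line 2 (0.11) or Sar1B:H79G line 1 (0.093), and Hibadh without any of these lines but the last, without Sar1B line 1 (0.054) or without Sar1B:H79G line 2 (0.069), at up to 0.15.

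Since Mccc1 carries biotin, 8 genes of biotin enzymes and biotin handling were counted as well. Of these, Pcca and Pccb also belong to the branched-chain list above. In Sar1B:H79G against control 1 of 8 passed, Pc, the pyruvate carboxylase, higher by 0.45 (adjusted p = 0.0369), beside a background of 13.2% higher and 9.17% lower. This was lost without control line 1 (adjusted p = 0.08), either Sar1B line (0.053 each), or Sar1B:H79G line 1 (0.097) or line 2 (0.1). Against Sar1B 2 of 8 were lower (background 5.29%), Acaca, which makes malonyl-CoA, at -0.47 (adjusted p = 0.0162), and Hlcs, the enzyme that attaches biotin to the carboxylases, at -0.65 (adjusted p = 0.0363). These calls were lost without Sar1B line 1 (adjusted p = 0.056 and 0.092), Sar1B line 2 (0.081 and 0.14) or Sar1B:H79G line 1 (0.055 and 0.077), and that of Hlcs also without Sar1B:H79G line 2 (0.11). No biotin gene passed in the other 4 comparisons, and the medians over the 8 genes were 0.04 against control and -0.06 against Sar1B.

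A further list held 8 genes for the control of ketone body genes or of ketone body synthesis, among them the mitochondrial enzymes Cpt1a and Sirt3. Of these 8, 5 were lower in Sar1B:H79G than in control and none was higher (background 9.17% lower, 13.2% higher), with a median of -0.57. Cpt1a, which admits fatty acids to mitochondria, was lower (-1.19, adjusted p = 0.0137), as were the coactivator Ppargc1a (-0.68, adjusted p = 0.0112) and the liver transcription factor Foxa2 (-0.56, adjusted p = 0.0156). Of the genes of the sterol-regulated factors, Srebf1 was at -0.67 (adjusted p = 0.0159) and Srebf2 at -0.57 (adjusted p = 0.0045). Against Sar1B, 4 of 8 were lower (background 5.29%): Foxa2 (-1.195, adjusted p = 0.00368), Srebf1 (-1.12, adjusted p = 0.00628), Cpt1a (-1.12, adjusted p = 0.0288) and Ppargc1a (-0.51, adjusted p = 0.0459).

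Against the Sar1A line Foxa2 (-0.70, adjusted p = 0.0482) and Srebf1 (-1.14, adjusted p = 0.0215) were lower. In Sar1B against control Foxa2 was higher by 0.63 (adjusted p = 0.0249), the list's only call there. The factor Ppara, the classical regulator of ketone body synthesis in liver, differed from control by -0.02 in Sar1B:H79G and did not pass (adjusted p = 0.862). Its line means ran from 7.65 to 7.82, below the median probe set mean of 8.131. Without detection calls, a signal this low cannot be told from none. The calls against control of Foxa2 and Cpt1a were lost without control line 1 (adjusted p = 0.07 and 0.073) or line 2 (0.064 and 0.079), that of Srebf1 without control line 1 (0.052) or Sar1B:H79G line 2 (0.054), and that of Foxa2 at 0.05 without the latter. Those of Ppargc1a and Srebf2 against control, and of Foxa2 and Srebf1 against Sar1B, were kept without each of the 6 control, Sar1B and Sar1B:H79G lines. Against Sar1B, Cpt1a was lost without either control line (0.081 each), Sar1B line 1 (0.058) or line 2 (0.12), and Ppargc1a without Sar1B line 1 (0.13) or line 2 (0.16) or Sar1B:H79G line 1 (0.15) or line 2 (0.07). Against Sar1A, Foxa2 was lost without either control line (0.11 each), Sar1B:H79G line 1 (0.081) or line 2 (0.11), and Srebf1 without Sar1B:H79G line 2 (0.051). Foxa2 in Sar1B against control was lost without control line 1, Sar1B line 1 or control line 2. Without the last, no probe set of the array passed in this comparison.

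**Figure D4:**
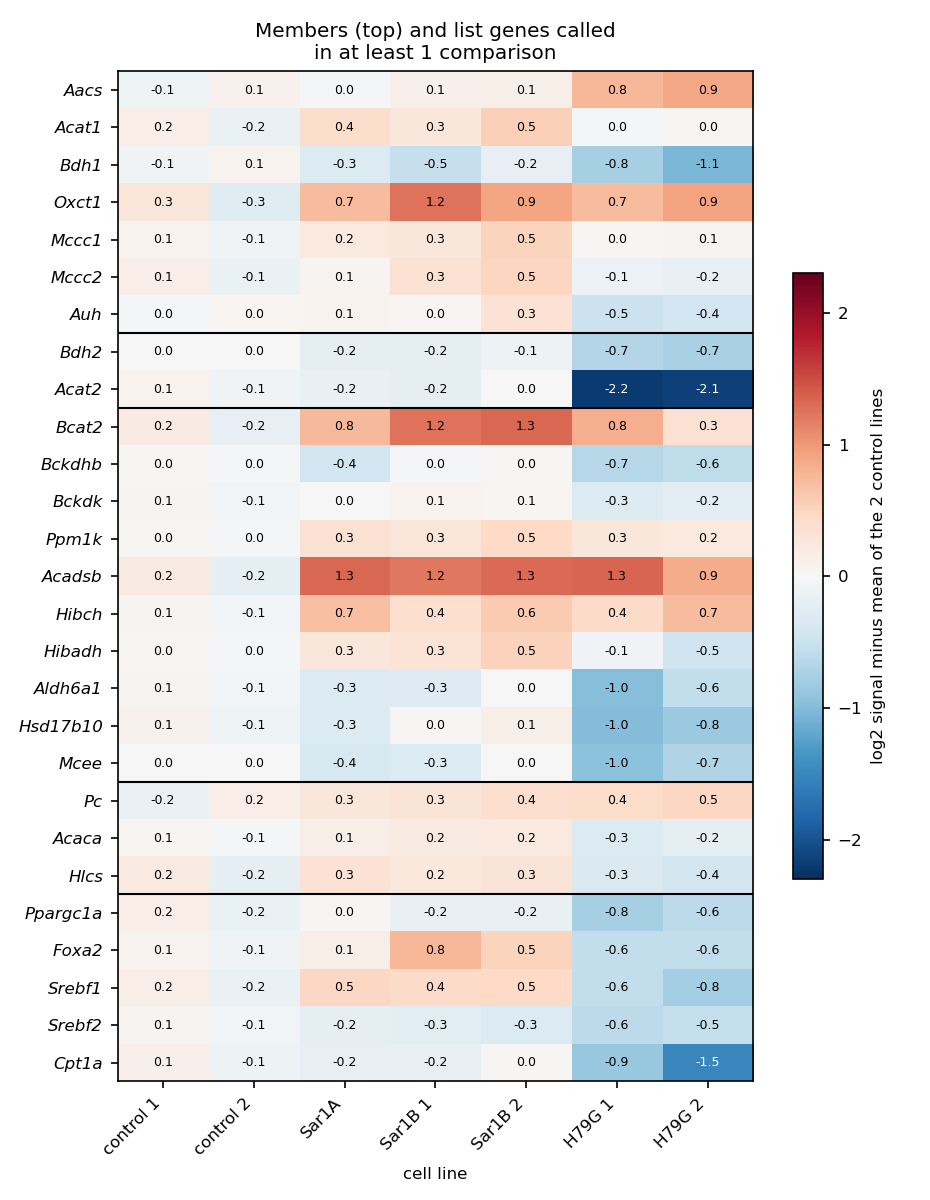
Line means of log2 signal minus the mean of both control lines (colour and printed value) for the 7 members, at the top, and for the 20 of 38 list genes that passed in at least 1 comparison, in blocks by list, with a column per cell line. The values run from -2.2 (Acat2) to 1.34 (Acadsb), both in Sar1B:H79G line 1, and Aacs is positive in both Sar1B:H79G columns, at 0.76 and 0.883, where Acat2 is negative.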

How the data were processed

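RNA of 7 McArdle-RH7777 lines was measured on 25 Affymetrix rat genome arrays. The authors deposited log2 signals, 1 per probe set and array, which they had normalized by loess and summarized with MAS 5 in CARMAweb (version not given in the sources used here). The log base was inferred from the values (1.64 to 15.4), and no detection calls were used. Of 31099 probe sets 57 array controls were left out. Of the other 31042, 20826 had 1 gene symbol in the platform annotation, 436 several and 9780 none.

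The mean of each line over its arrays entered a limma 3.58.1 fit (R 4.3.3) of 4 group means, which left 3 residual degrees of freedom beside 3.16 from the prior. A probe set passed where its p, corrected by Benjamini-Hochberg for 31042 probe sets, was under 0.05. The brightest probe set stood for a gene. Nothing says that the arrays of a line came from separate cultures, and the number of lines limits the precision. The members, lists and tests were chosen with earlier results of these data known. Genes given with differences were the 7 members, the list genes with an adjusted p under 0.05 in any comparison, and for each member the 2 genes of highest correlation over the line means. Further list genes and the markers were named for counts only. Ppara, named beside them, was chosen after its values were seen.

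Results were recomputed with arrays in place of lines, with lines as random blocks (statmod 1.5.0), after quantile normalization or a shift to a common median, over the brighter probe sets alone, in fits of 2 groups, with a robust trended prior, with line numbers as a block, without each control, Sar1B or Sar1B:H79G line, over the mean of a gene's probe sets and at an adjusted p under 0.01. A fit without array 2 of Sar1B line 2 was added after the data had been seen. Promoters came from RefSeq (GRCr8), and motifs were searched on both strands.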

Additional observations from a re-analysis of the deposited data

Results flagged for a closer look

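The arrays of each of the 4 groups were compared for each of the 9 probe sets of the members, and 1 of these 36 sets held an array far from the others, and chance flags about 1 in 20 such sets. It was array 1 of the Sar1A line for Auh, at a log2 signal of 10.08, where the nearest array of that line was at 9.86 and the lowest at 9.83, so that the gap made up 0.881 of the line's range.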

How the results depend on the processing

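The line is the unit here. With each array as a replicate, Sar1B:H79G against control stayed at 4 members called while its background rose to 52.3%. The count was 5 for Sar1B and 4 for Sar1A against control, 7 for Sar1B:H79G against Sar1B and 4 for it against Sar1A, and 2 for Sar1A against Sar1B. The background of these comparisons grew to 42.2%, 36.2%, 31.8%, 23.2% and 10.3% with arrays. With the line as a random block the counts were 5, 2, 6, 4 and 1, beside a background of 26.4%, 19.3%, 22.2%, 14.6% and 3.84%. A fit of only the groups compared left 0 in Sar1B:H79G against Sar1A, where it called 0 of 31042 probe sets. At an adjusted p under 0.01 Sar1B:H79G kept 1 against control, 1 against Sar1B and 0 against Sar1A, and Sar1B kept 0 against control. The background at this threshold was 6.75%, 2.54%, 0.403% and 0.2% in the same order. Leaving out a control, Sar1B or Sar1B:H79G line leaves 1 line in that group, and the calls then lost are given with each gene. In each such fit fewer of all probe sets also passed in Sar1B:H79G against control and against Sar1B than with all lines. Auh against Sar1A was a call gained without Sar1B line 1 or line 2. With fewer lines the fit has fewer degrees of freedom, and for the other changes the cause was not tested.

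The line numbers only mark lines: deviations of same-numbered lines correlated at 0.0071, 0.192 and 0.0752 between groups. With the line number as a replicate block, on the 6 numbered lines, Sar1B:H79G had 4 against control (background 22.6%) and 2 against Sar1B (8.45%). Sar1B had 1 against control (6.46%), and Mccc2 in Sar1B:H79G against Sar1B was the call lost (adjusted p = 0.055).

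Of 693 recomputed differences of single members, 616 kept direction and side of the threshold, 30 lost and 32 gained a call, and 15, none of them called, changed sign. Acat1 in Sar1B:H79G against control was 0.0297 with arrays and 0.0145 with the random block, and -0.16 to 0.16 without single lines. Mccc2 in Sar1A against control was -0.0452 after quantile normalization, Acat1 in Sar1A against Sar1B 0.00811 after a shift to a common median, and Bdh1 there -0.0012 as the mean of its probe sets. Without single lines, in Sar1B:H79G against control Mccc2 ran from -0.29 to 0.0012 and Mccc1 from -0.0437 to 0.13, and Oxct1 against Sar1A from -0.0029 to 0.19. In Sar1A against control Aacs ran from -0.14 to 0.0482 and Mccc2 from -0.0924 to 0.20, and in Sar1A against Sar1B Bdh1 from -0.12 to 0.21, Acat1 from -0.14 to 0.13 and Auh from -0.25 to 0.0448.

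With 1 or 2 lines per group and no detection calls, a difference that did not pass is not shown to be absent. The precision rests on lines, not on arrays, and the share of the spread that comes from single clones was not tested.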
